A study of Homo sapiens with 6 samples.

Results

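Aminoacyl-tRNA synthetases join each amino acid to its own tRNA, and so supply the charged tRNAs that ribosomes read. Human cells use separate enzymes for the cytosol and for mitochondria. Nearly all of the mitochondrial enzymes come from nuclear genes of their own, are made in the cytosol and are imported, and there they serve the translation of the few respiratory chain proteins that the mitochondrial genome encodes. Several cytosolic enzymes are held together in a multi-synthetase complex by scaffold proteins, among them AIMP1 and AIMP2. In nutrient-deprived cells, transcription of cytosolic synthetase genes is known to be raised by ATF4, a factor that binds DNA as a dimer with C/EBP proteins.

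The genes examined were those whose symbol consists of a letter followed by ARS and an optional 1, 2 or 3, together with FARSA, FARSB, EPRS1, AIMP1 and AIMP2. The rule found 40 of 61541 genes. By their known location, 19 encode cytosolic enzymes and 17 mitochondrial enzymes, 2 (GARS1 and KARS1) encode both forms, and 2 (AIMP1 and AIMP2) encode scaffolds. All 40 passed the filter on low counts, and thus every member was tested.

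The genes were measured by bulk RNA-seq in wild-type (WT) H9 cells, a cutaneous T-cell lymphoma line that the study used to ask how CDK9 antagonism acts in lymphoma cells that do not depend on MCL-1. CDK9 is the kinase that phosphorylates RNA polymerase II (RNAP2) and thereby releases it into productive elongation. One group received the vehicle DMSO (3 libraries) and the other the selective CDK9 inhibitor AZD4573 (3 libraries), at 50 nM by the study's figure legends and for 4 h by the labels. All libraries came from this single cell line, and the labels do not say whether replicates were separate cultures, so that p-values measure the spread between these libraries only.

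Each library held 70367303 to 76571157 counts with DMSO and 52101868 to 63795185 counts with AZD4573. Levels below are in CPM (a gene's counts relative to the library total) after TMM scaling, which equalizes libraries on the bulk of their genes, and errors are SD over 3 libraries. Of 10 T-cell markers, 7 (CD3D, CD3E, CD3G, CD5, LCK, TRAC and TRBC1) exceeded 10 CPM in every library, CD4 lay between 3.61 and 7.35 CPM, and CD2 and CD7 stayed under 1 CPM. Their summed level was 1070 to 1130 CPM with DMSO and 1570 to 1610 CPM with AZD4573. Of 10 markers of other cell types, 7 stayed under 1 CPM in every library, whereas CD79A (55.0 to 98.4 CPM), EPCAM (132 to 167 CPM) and COL1A1 (3.54 to 7.39 CPM) did not, and their sum was 211 to 234 CPM with DMSO and 230 to 239 CPM with AZD4573. The part of these marker levels in the results below was not tested. In bulk samples, a smaller number of cells cannot be told apart from less RNA per cell.

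The scaling matters for any statement of direction. The 13 mRNAs encoded in mitochondrial DNA, which has a polymerase of its own, took 3.13% ± 0.0929 (SD, n = 3) of all counts in the DMSO group and 4.85% ± 0.162 (SD, n = 3) in the AZD4573 group. Scaling to these mRNAs in place of TMM shifted the median over the 17678 tested genes from 0.03 to -0.71 on the log2 scale. It left 1769 genes called higher and 9433 called lower (15.8% higher), in place of 4012 and 4191 (48.9% higher). Fold changes below are therefore relative to the bulk of transcripts, and the value under mitochondrial mRNA scaling is given where the direction turned. The count ratio of a pair of genes within a library does not depend on the scaling.

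Upon AZD4573 treatment, transcripts of many mitochondrial synthetases fell, whereas those of most cytosolic synthetases rose relative to the bulk of transcripts, a rise that turned to values below 0 under mitochondrial mRNA scaling. Of the 17 mitochondrial enzymes, 8 (47.1%) were called lower, that is, at a fold of 1.5 or more and an adjusted p under 0.05 (quasi-likelihood test of edgeR, adjusted by the Benjamini-Hochberg method across every tested gene). Of all genes tested, 23.7% were called lower and 22.7% were called higher. A further 2 mitochondrial enzymes (PARS2 and VARS2) were called higher. The median log2 fold change of the 17 genes was -0.41 (range -1.91 to 0.92), beside 0.03 over all genes tested. Of the 19 cytosolic enzymes, 4 were called lower (21.1%, close to the share over all genes) and 2 were called higher. Their median was 0.39 (range -0.96 to 0.71), which turned to -0.35 under mitochondrial mRNA scaling. That scaling called 13 mitochondrial and 7 cytosolic enzymes lower and none higher. Over all 17678 genes tested, it called 9433 lower and 1769 higher, so the 23.7% above is not the share to set beside these counts. The counts of higher calls are small and lie near the fold criterion: with TMM, 1 cytosolic enzyme was called higher without AZD4573 replicate 3 and 4 without AZD4573 replicate 1, and 1 mitochondrial enzyme was called higher without DMSO replicate 1.

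Without the fold criterion, most members passed the test under TMM scaling, that is, relative to the bulk of transcripts. Passing it did not settle the direction, since 21 members turned from above to below 0 under mitochondrial mRNA scaling. At an adjusted p under 0.05 alone, 37.4% of all genes tested were lower and 37.3% were higher. By this criterion 10 mitochondrial enzymes were lower and 5 higher, whereas 6 cytosolic enzymes were lower and 12 higher, and under mitochondrial mRNA scaling none of these 12 remained above 0. The ranges of the groups did not overlap for 15 of the 17 mitochondrial and 18 of the 19 cytosolic enzymes, which was also true of 77.8% of all tested genes.

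**Figure D1:**
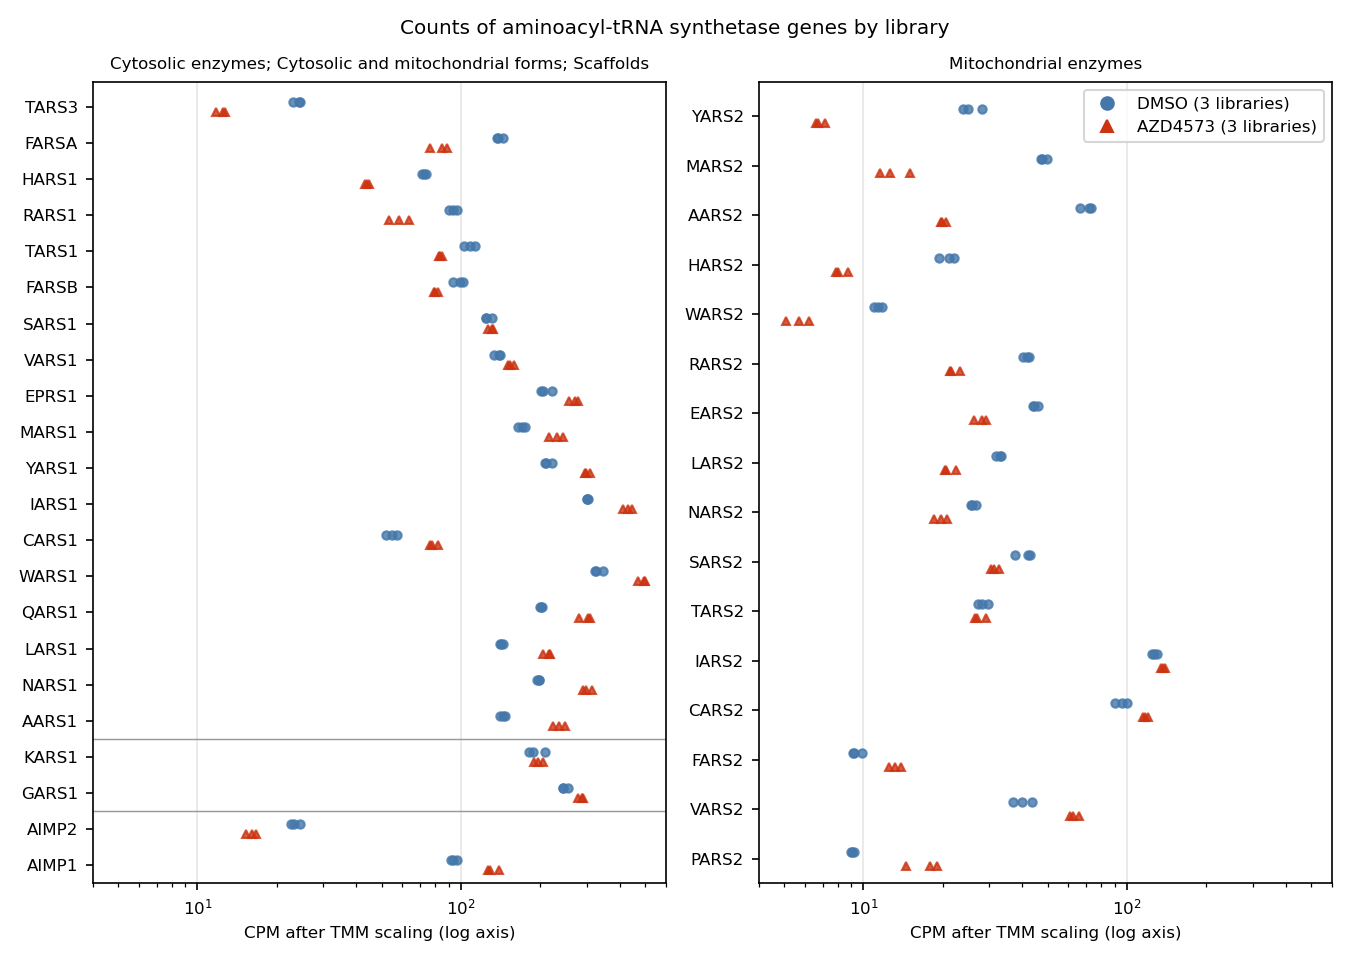
Level of 38 of the 40 genes in each library, as CPM after TMM scaling on a log axis, with circles for DMSO and triangles for AZD4573. The cytosolic panel also holds the genes with both forms and the scaffolds, set off by lines. Over all members, 18 of 19 cytosolic and 15 of 17 mitochondrial enzymes had groups that did not overlap.

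The largest falls were those of YARS2, MARS2 and AARS2, the mitochondrial enzymes for tyrosine, methionine and alanine. YARS2 (ENSG00000139131, chr12:32727490-32755897, minus strand of GRCh38) stood at 28.2, 25.0 and 23.8 CPM with DMSO and at 7.17, 6.75 and 6.62 CPM with AZD4573. MARS2 (ENSG00000247626, chr2:197705369-197708395, plus strand), a gene of 1 exon without introns, stood at 47.3, 49.9 and 47.7 CPM with DMSO and at 15.0, 11.6 and 12.6 CPM with AZD4573. AARS2 (ENSG00000124608, chr6:44298731-44313347, minus strand) stood at 66.4, 73.1 and 71.5 CPM with DMSO and at 20.5, 19.7 and 19.8 CPM with AZD4573. In all 3 genes, the lowest DMSO library was more than 3 times as high as the highest AZD4573 library. The log2 fold changes were -1.91 ± 0.0811 (SE) for YARS2, -1.88 ± 0.0794 for MARS2 and -1.81 ± 0.0555 for AARS2, with adjusted p-values of 2.5e-10, 2.3e-10 and 2.5e-11 from the quasi-likelihood test of edgeR (Benjamini-Hochberg adjusted).

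HARS2 and WARS2, which charge mitochondrial tRNAs with histidine and tryptophan, followed. HARS2 (ENSG00000112855) went from 19.3, 21.2 and 22.0 CPM with DMSO to 8.04, 8.74 and 7.90 CPM with AZD4573, a log2 fold change of -1.34 ± 0.0768 (SE). WARS2 (ENSG00000116874) went from 11.8, 11.4 and 11.0 CPM to 6.23, 5.09 and 5.70 CPM, a log2 fold change of -1.01 ± 0.0928 (SE). Neither gene's groups overlapped, and the adjusted p-values from the quasi-likelihood test of edgeR (Benjamini-Hochberg adjusted) were 3.1e-09 and 3.3e-07. RARS2 (arginine), EARS2 (glutamate) and LARS2 (leucine) completed the genes called lower, with log2 fold changes of -0.92, -0.68 and -0.64. LARS2 lay just past the fold criterion, at 1.55-fold lower. NARS2 (asparagine) and SARS2 (serine) fell by 0.41 and 0.38 on the log2 scale and thus met the p criterion only.

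The remaining mitochondrial enzymes did not pass the test or rose, and of the 5 that rose PARS2 alone stayed above 0 under mitochondrial mRNA scaling. TARS2 (threonine) had a log2 fold change of -0.04 (95% interval -0.17 to 0.09) and did not pass the test, but was at -0.78 under mitochondrial mRNA scaling, where it was lower past both criteria. IARS2 (isoleucine) rose by 0.11, CARS2 (cysteine) by 0.30 and FARS2 (phenylalanine) by 0.49 on the log2 scale, and all 3 turned to -0.63, -0.43 and -0.25 under mitochondrial mRNA scaling. The rise of IARS2 no longer passed the test with library size only (0.00293), without a filter (0.07), or without DMSO replicate 2 (0.11), DMSO replicate 3 (0.08), AZD4573 replicate 2 (0.09) or AZD4573 replicate 3 (0.10). VARS2, the valine enzyme (ENSG00000137411, chr6:30914205-30926459, plus strand), stood at 37.1, 40.0 and 43.6 CPM with DMSO and at 62.2, 60.9 and 65.6 CPM with AZD4573. Its groups were well apart, with a log2 fold change of 0.65 ± 0.0615 (SE), and -0.09 under mitochondrial mRNA scaling. PARS2, the proline enzyme (ENSG00000162396, chr1:54756898-54764523, minus strand), was among the lowest of the members, at 9.23, 9.07 and 8.99 CPM with DMSO and 14.5, 17.9 and 19.1 CPM with AZD4573. Its log2 fold change of 0.92 ± 0.0943 (SE) was the largest rise of any member, and its value under mitochondrial mRNA scaling was 0.18, where it no longer passed the test. The adjusted p-values of VARS2 and PARS2 were 4.6e-07 and 9.5e-07 in the quasi-likelihood test of edgeR (Benjamini-Hochberg adjusted).

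Among the cytosolic enzymes, 12 of 19 rose past the test within a narrow band, from 0.16 to 0.71 on the log2 scale, and under mitochondrial mRNA scaling all 12 turned, to values of at most -0.03. AARS1, the alanine enzyme (ENSG00000090861, chr16:70251983-70289707, minus strand), stood at 147, 141 and 144 CPM with DMSO and at 223, 236 and 248 CPM with AZD4573. NARS1, the asparagine enzyme (ENSG00000134440, chr18:57600656-57622213, minus strand), stood at 197, 198 and 195 CPM with DMSO and at 290, 298 and 313 CPM with AZD4573. These 2 genes were the ones called higher, and their libraries did not overlap between groups. AARS1 had a log2 fold change of 0.71 ± 0.0462 (SE, adjusted p = 1.0e-08) and NARS1 one of 0.61 ± 0.0412 (SE, adjusted p = 1.4e-08) in the quasi-likelihood test of edgeR (Benjamini-Hochberg adjusted). Under mitochondrial mRNA scaling they were at -0.03 and -0.13. Just short of the fold criterion stood LARS1 (0.58, 1.49-fold), QARS1 (0.56, 1.48-fold) and WARS1 (0.55, 1.47-fold), the enzymes for leucine, glutamine and tryptophan. CARS1, IARS1, YARS1, MARS1, EPRS1 and VARS1 rose by 0.52, 0.51, 0.50, 0.44, 0.37 and 0.16, and all of these reversed under mitochondrial mRNA scaling. The rise of VARS1 did not pass the test with library size only (0.05) or without a filter (0.12). SARS1 had a log2 fold change of 0.04 (95% interval -0.05 to 0.13) and did not pass the test, with -0.70 under mitochondrial mRNA scaling.

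The cytosolic enzymes that were called lower charge threonine, phenylalanine, histidine and arginine. TARS3, a paralog of the main cytosolic threonine enzyme (ENSG00000185418), went from 23.1, 24.3 and 24.6 CPM with DMSO to 12.5, 12.7 and 11.8 CPM with AZD4573. FARSA, the catalytic subunit of the phenylalanine enzyme (ENSG00000179115), went from 144, 138 and 137 CPM to 88.9, 84.5 and 76.6 CPM. HARS1, the histidine enzyme (ENSG00000170445), went from 72.6, 71.2 and 73.4 CPM to 44.7, 44.1 and 43.4 CPM. RARS1, the arginine enzyme (ENSG00000113643), went from 96.6, 93.4 and 90.1 CPM to 63.3, 58.2 and 53.4 CPM. None of the 4 had overlapping groups, and their log2 fold changes were -0.96 ± 0.0639 (SE), -0.75 ± 0.0541, -0.72 ± 0.0455 and -0.68 ± 0.0599. FARSB, the other subunit of the phenylalanine enzyme, fell by 0.29 on the log2 scale, and TARS1, the main threonine enzyme, fell by 0.37.

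The genes that serve both the cytosol and mitochondria differed little between groups under TMM scaling, but both were below 0 under mitochondrial mRNA scaling. GARS1, for glycine (ENSG00000106105), stood at 255, 245 and 245 CPM with DMSO and at 278, 288 and 291 CPM with AZD4573, a rise of 0.20 ± 0.0397 (SE, adjusted p = 4.1e-04, the quasi-likelihood test of edgeR (Benjamini-Hochberg adjusted)) that turned to -0.54 under mitochondrial mRNA scaling. KARS1, for lysine (ENSG00000065427), stood at 208, 187 and 181 CPM with DMSO and at 196, 189 and 204 CPM with AZD4573. Its groups overlapped, and its log2 fold change of 0.03 (95% interval -0.09 to 0.15) did not pass the test, whereas under mitochondrial mRNA scaling it was at -0.71, lower past both criteria.

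The 2 scaffolds among the members moved in opposite directions. AIMP1 (ENSG00000164022), from which a secreted cytokine is also made, stood at 96.7, 92.9 and 91.5 CPM with DMSO and at 127, 129 and 139 CPM with AZD4573. AIMP2 (ENSG00000106305), on which the complex depends for its assembly, stood at 24.6, 22.6 and 23.3 CPM with DMSO and at 16.7, 16.1 and 15.3 CPM with AZD4573. AIMP1 rose by 0.49 on the log2 scale, with -0.25 under mitochondrial mRNA scaling, and AIMP2 fell by 0.55, with the groups of each apart. Of the 7 cytosolic enzymes in the complex, 6 (among them EPRS1, IARS1, LARS1, MARS1 and QARS1) rose and RARS1 fell, with a median log2 fold change of 0.44. All 6 rises reversed under mitochondrial mRNA scaling. Of the 12 cytosolic enzymes outside it, 6 rose, 5 fell and 1 did not pass the test, with a median of 0.10 and a wider spread from -0.96 to 0.71. KARS1, which serves both compartments, is also in the complex, but was left out of these counts and did not pass the test. With KARS1 and these 2 scaffolds, 7 of the 10 members in the complex rose and 2 fell, with a median of 0.41. EEF1E1, the remaining scaffold of the complex, is outside the rule and not in this count, and it fell by 0.80. By the adjusted p alone, as used here, 37.3% of all genes tested were higher and 37.4% lower.

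**Figure D2:**
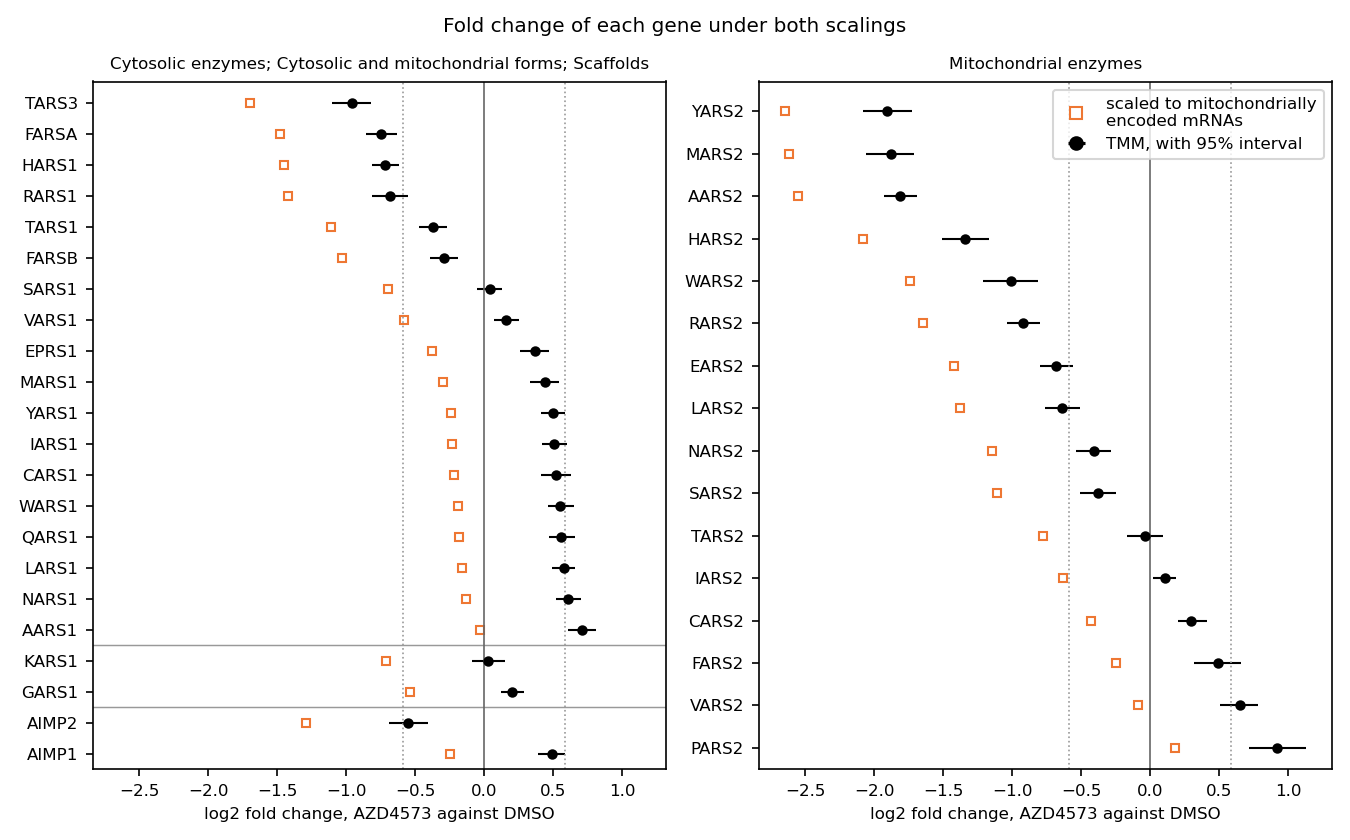
Log2 fold change of 38 of the 40 genes, AZD4573 against DMSO, as filled circles with the 95% interval under TMM scaling and as open squares under mitochondrial mRNA scaling, with dotted lines at a fold of 1.5. Over all members, 12 cytosolic enzymes rose under TMM scaling, and under the other scaling PARS2 was the sole member above 0.

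Synthetases fall into 2 classes with unrelated catalytic folds, and each compartment holds enzymes of both. Of the 9 cytosolic class I enzymes, 8 rose and RARS1 fell (median log2 fold change 0.51), and all 8 rises reversed under mitochondrial mRNA scaling. Of the 9 cytosolic class II enzymes, 3 rose, 5 fell and SARS1 did not pass the test (median -0.29). EPRS1, whose glutamate and proline domains belong to different classes, was left out of this count. These cytosolic counts use an adjusted p under 0.05 alone, by which 37.3% of all genes tested were higher and 37.4% lower. Of the mitochondrial enzymes, 6 of 9 in class I (66.7%, median -0.68) and 2 of 8 in class II (25.0%, median -0.21) were called lower, where 23.7% of all genes tested were. The difference between classes was not tested in either compartment.

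The sequence around each start site was read for TGATGNAA, the amino acid response element bound by dimers of ATF4 and C/EBP. Promoters in the RefSeq table for GRCh38.p14 (250 bases before to 50 after the start) matched 32 of the 40 members by symbol. Among those without an entry were AARS2, LARS1, TARS3, VARS1, VARS2 and YARS1. On either strand, the motif was found in 6 of 14 cytosolic promoters (42.9%), 1 of 14 mitochondrial ones (7.14%) and none of the 4 promoters of GARS1, KARS1, AIMP1 and AIMP2. Of all 35116 promoters in the table, 1270 (3.62%) held it, as did 195 of the 11422 promoters of tested genes (1.71%). The windows of 30 bases around the 7 matches are shown, because they hold the letters that ATF4 and C/EBP are known to read. Each is written 5′ to 3′ on the strand where the motif reads TGATGNAA, with the motif in capitals, ordered by the gene's log2 fold change.
AARS1, chr16:70289675-70289704, plus strand: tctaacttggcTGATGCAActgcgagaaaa
NARS1, chr18:57621804-57621833, minus strand: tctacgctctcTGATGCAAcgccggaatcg
CARS1, chr11:3057407-3057436, plus strand: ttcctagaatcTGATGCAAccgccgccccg
IARS1, chr9:92293692-92293721, plus strand: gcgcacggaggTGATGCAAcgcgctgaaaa
MARS1, chr12:57488053-57488082, minus strand: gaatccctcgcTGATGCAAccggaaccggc
TARS1, chr5:33440956-33440985, minus strand: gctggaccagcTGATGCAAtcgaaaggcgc
YARS2, chr12:32756076-32756105, minus strand: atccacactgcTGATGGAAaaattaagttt

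All 6 cytosolic matches carried the same 8 letters, TGATGCAA, which 304 of the 35116 promoters (0.866%) held. This form was singled out after the sequences were seen. Relative to the RefSeq start and along the gene's own strand, the most upstream motif base lay at -13 in IARS1, -4 in MARS1 and -2 in CARS1. It lay at 3 in TARS1, 15 in NARS1 and -187 in AARS1. All 8 motif bases of these 6 genes lay within an exon of the gene in GENCODE release 44, which lists more start sites than the RefSeq table. In YARS2 the match ended in TGATGGAA, lay at -197 and overlapped none of its exons. Of the 6 cytosolic genes with the motif, AARS1, NARS1, CARS1, IARS1 and MARS1 rose and TARS1 fell, with a median log2 fold change of 0.52. The median was -0.12 for the 8 cytosolic genes whose promoter in the table lacked these letters. All 5 rises reversed under mitochondrial mRNA scaling, and over the promoters of tested genes the medians were 0.07 with the motif and -0.06 without it. A match is a string of letters and not evidence of binding.

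HARS1 and HARS2 are neighbours on chromosome 5, transcribed away from each other, and both were called lower. Their RefSeq starts lie at 140691370 and 140691455 of GRCh38.p14, with 84 bases between them, of which 59.5% are G or C. HARS1 had a log2 fold change of -0.72 and HARS2 one of -1.34, and the count ratio of HARS1 to HARS2 was 3.34 to 3.76 with DMSO and 5.05 to 5.56 with AZD4573. By GENCODE, however, the genes overlap and share 108 exon bases. In all, HARS1 shared 8.5% of its exon bases with other genes and HARS2 7.0%, so their counts cannot be separated fully.

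Genes that share exon bases with another gene cannot be separated fully, since the counting at default settings ignored the strand of the reads. By GENCODE, 6 members shared at least 10% of their exon bases. VARS2 shared 63.0% with a lncRNA on its own strand (ENSG00000288473), which itself stood at 20.0 CPM with DMSO and 30.9 CPM with AZD4573, so that the rise of VARS2 is uncertain. SARS2 shared 48.2% with a readthrough gene that had at most 1 count in any library. AIMP2 shared 29.1% with EIF2AK1, a kinase gene on the opposite strand at 158 CPM with DMSO and 185 CPM with AZD4573. YARS2 shared 18.1% with a lncRNA at 0.653 CPM with DMSO, against 25.7 CPM for YARS2 itself. MARS1 shared 13.3%, part of it with DDIT3 on the opposite strand, which stood at 11.5 CPM with DMSO and 0.633 CPM with AZD4573, against 170 CPM and 230 CPM for MARS1. WARS1 shared 10.6% with its neighbours. Pseudogenes bearing the gene's name are annotated for 12 members, and 13 members shared no exon base with any gene.

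The compartments were also compared as sums over their genes. The 19 cytosolic enzymes together stood at 2990, 2900 and 2860 CPM with DMSO and at 3580, 3710 and 3780 CPM with AZD4573. The 17 mitochondrial enzymes stood at 701, 718 and 715 CPM with DMSO and at 590, 593 and 598 CPM with AZD4573. In each library, the cytosolic sum divided by the mitochondrial sum was 4.27, 4.03 and 4.01 with DMSO and 6.07, 6.25 and 6.31 with AZD4573. The ratio was thus higher in all 3 AZD4573 libraries, at a mean of 6.21 ± 0.125 (SD, n = 3) against 4.10 ± 0.145 (SD, n = 3), or 1.51-fold. As a sum over chosen genes it was not tested.

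**Figure D3:**
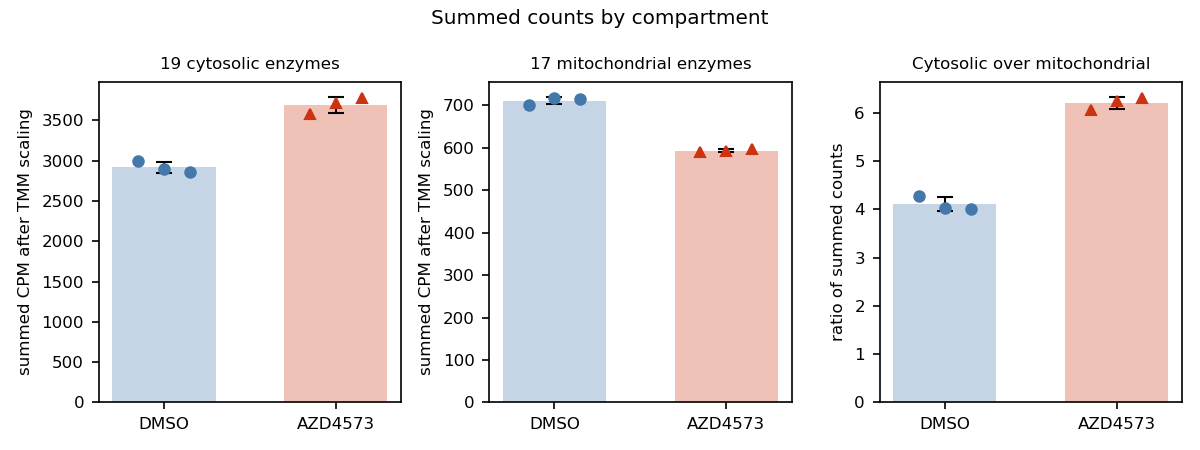
Summed CPM after TMM scaling of the 19 cytosolic and the 17 mitochondrial enzymes, and the ratio of their summed counts. Bars are means, points are libraries and error bars are SD (n = 3); the ratio was 4.01 to 4.27 with DMSO and 6.07 to 6.31 with AZD4573. The CPM sums rest on TMM scaling, under mitochondrial mRNA scaling the cytosolic median turned from 0.39 to -0.35, and the ratio does not depend on either.

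Each mitochondrial enzyme was then set against the cytosolic enzyme for the same amino acid, as the ratio of their counts within a library, which gave 18 pairs. EPRS1 was paired with both EARS2 and PARS2, and FARS2 with both FARSA and FARSB, so that these pairs share a gene. The ratio was higher in every AZD4573 library for 13 pairs and lower in every one for 5. Ratios of other gene pairs were not examined, and the levels of 77.8% of all tested genes also did not overlap between groups. Such separation is therefore not particular to these pairs. For all 18 pairs the exact two-sided permutation test gave p = 0.1, the smallest that 3 against 3 libraries allow, so no pair could pass a threshold of 0.05. The median log2 change of the ratio was 0.40, and it was over 1.5-fold higher in 8 pairs and over 1.5-fold lower in 2.

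The ratios that differed most were those of the alanine, tyrosine and methionine pairs. AARS1 to AARS2 was 2.21, 1.93 and 2.02 with DMSO and 10.9, 12 and 12.5 with AZD4573, 5.74-fold higher. YARS1 to YARS2 was 7.81, 8.31 and 8.83 with DMSO and 41.1, 44.3 and 46.8 with AZD4573, 5.30-fold higher. MARS1 to MARS2 was 3.71, 3.42 and 3.45 with DMSO and 14.4, 19.8 and 19.3 with AZD4573, 5.01-fold higher. In these 3 pairs the mitochondrial partner fell under both scalings, whereas the cytosolic partner rose under TMM scaling only and was at -0.03 (AARS1), -0.24 (YARS1) and -0.30 (MARS1) under mitochondrial mRNA scaling. The pairs for tryptophan (2.95-fold), leucine (2.32-fold), glutamate (EPRS1 to EARS2, 2.07-fold), asparagine (2.03-fold) and histidine (1.54-fold) followed. Those for serine, isoleucine, arginine and cysteine were 1.16-fold to 1.33-fold higher. CARS1 to CARS2 was the sole pair in which the mitochondrial gene had more counts, at a ratio of 0.576 ± 0.0560 (SD, n = 3) with DMSO and 0.667 ± 0.0169 (SD, n = 3) with AZD4573.

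The phenylalanine pairs went the other way. FARSA to FARS2 was 14.6, 15.2 and 14.9 with DMSO and 6.38, 6.42 and 6.12 with AZD4573, 2.36-fold lower. FARSB to FARS2 was 10.3, 10.9 and 10.1 with DMSO and 5.88, 6.08 and 6.31 with AZD4573, 1.71-fold lower. In both the cytosolic subunit fell, and FARS2 rose under TMM scaling and was at -0.25 under mitochondrial mRNA scaling. EPRS1 to PARS2 was 24.0, 22.6 and 22.3 with DMSO and 17.7, 15.2 and 14.6 with AZD4573, 1.46-fold lower, and the valine and threonine pairs were 1.40-fold and 1.25-fold lower.

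**Figure D4:**
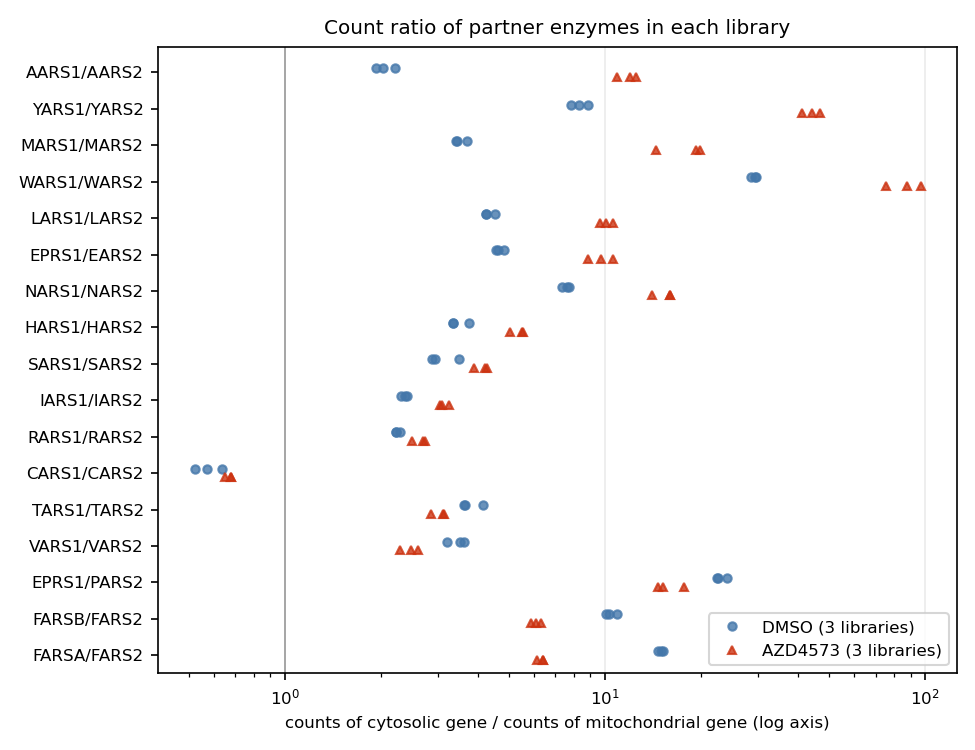
Counts of the cytosolic gene divided by counts of the mitochondrial gene for 17 of the 18 pairs, on a log axis, with circles for DMSO and triangles for AZD4573 libraries. The groups did not overlap in any pair, as was true of the levels of 77.8% of all tested genes. Among the pairs drawn, the ratio was higher with AZD4573 in 12 and lower in 5.

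Levels were compared between genes per kilobase of the canonical transcript. With DMSO, the highest mean levels were those of WARS1 (126 CPM per kb), GARS1 (102 CPM per kb), KARS1 (96.5 CPM per kb), YARS1 (87.1 CPM per kb) and QARS1 (82.1 CPM per kb). The mitochondrial enzymes ranged from 3.86 CPM per kb (PARS2) to 51.8 CPM per kb (CARS2). On this scale the ratio of the compartment sums was 3.97 ± 0.148 (SD, n = 3) with DMSO and 5.59 ± 0.0987 (SD, n = 3) with AZD4573, or 1.41-fold higher. Across members, log2 fold changes had a Spearman correlation of 0.11 with the span of the gene (n = 40 genes, from 3030 to 568000 bases) and of 0.31 with the number of exons. With the mean CPM of the DMSO libraries the correlation was 0.61 over the 19 cytosolic enzymes and -0.11 over the 17 mitochondrial ones. These describe genes that share the same 6 libraries, and the DMSO level is also part of the fold change.

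Of 14 other genes of tRNA charging, 7 were called lower (50.0%, beside 23.7% of all genes tested) and none higher by edgeR (22.7% of all genes tested). By the p criterion alone, 7 were lower and 4 higher, beside 37.4% and 37.3% of all genes tested. Their median log2 fold change was -0.35. Human mitochondria make glutaminyl-tRNA indirectly, through EARS2 and an amidotransferase of the subunits QRSL1, GATB and GATC. EARS2, QRSL1 and GATC fell, with log2 fold changes of -0.68, -1.37 and -1.03, while GATB had a value of 0.08 (95% interval -0.09 to 0.25) and did not pass the test. QRSL1 stood at 22.9, 19.7 and 20.0 CPM with DMSO and at 9.71, 7.53 and 7.14 CPM with AZD4573, and GATC at 74.3, 72.7 and 72.0 CPM and at 38.2, 35.5 and 33.4 CPM. MTFMT, which formylates the mitochondrial initiator methionyl-tRNA made by MARS2, fell by 0.76. TRNT1, which adds the CCA end to tRNAs of both compartments, fell by 0.64. PSTK, a kinase of the selenocysteine pathway, and DTD2, a proofreading deacylase, fell by 0.79 and 0.77. EEF1E1, the remaining scaffold of the multi-synthetase complex, fell by 0.80, from 45.9, 47.2 and 42.9 CPM to 28.7, 24.6 and 25.0 CPM. XPOT, the tRNA exporter, rose by 0.53, DTD1 by 0.33, and the elongation factors that carry charged tRNA to ribosomes, EEF1A1 of the cytosol and TUFM of mitochondria, by 0.58 and 0.56. These 4 rises turned to values from -0.41 to -0.16 under mitochondrial mRNA scaling. SEPSECS (-0.02) and AARSD1 (-0.07) did not pass the test.

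Among 10 genes of the response to uncharged tRNA, which runs through the amino acid response element, 3 were called lower (30%, beside 23.7% of all genes tested) and 2 higher (beside 22.7%), with a median log2 fold change of -0.34 (-1.08 under mitochondrial mRNA scaling). With so few genes these counts lie near the shares over all genes. EIF2AK4, the kinase GCN2, rose by 0.34 on the log2 scale (-0.41 under mitochondrial mRNA scaling), and its activator GCN1 fell by 0.29. ATF4 stood at 228, 246 and 246 CPM with DMSO and at 220, 228 and 219 CPM with AZD4573, a log2 fold change of -0.11 (95% interval -0.20 to -0.02). CEBPB and CEBPG, partners of ATF4, fell by 0.92 and 0.52. Of the known ATF4 targets, ASNS stood at 143, 134 and 125 CPM with DMSO and at 225, 246 and 259 CPM with AZD4573, and TRIB3 at 113, 104 and 97.6 CPM and at 154, 176 and 185 CPM. These 2 were called higher, with log2 fold changes of 0.86 and 0.71 that became 0.12 and -0.03 under mitochondrial mRNA scaling. DDIT3, another target, stood at 11.9, 11.3 and 11.3 CPM with DMSO and at 0.747, 0.596 and 0.557 CPM with AZD4573, with a log2 fold change of -4.19 ± 0.127 (SE). SESN2 fell by 0.92, and CHAC1, at 0.180 to 0.751 CPM in all libraries, did not pass the test (log2 fold change -0.39).

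The neighbouring gene families of translation gave a scale for these shifts. Of 78 mitochondrial ribosomal protein genes, which serve the same organelle as the mitochondrial synthetases, 30 were called lower (38.5%, beside 23.7% of all genes tested) and none higher by edgeR (22.7% of all genes tested). By the p criterion alone, 51 were lower and 10 higher, beside 37.4% and 37.3% of all genes tested. Their median log2 fold change was -0.39. Of 63 tested EIF and EEF translation factors, 10 were called lower (15.9%, under the share over all genes) and 7 higher, also under the 22.7% of all genes tested. Their median was 0.06, which turned to -0.68 under mitochondrial mRNA scaling. The medians of the mitochondrial and cytosolic synthetases, given beside them, were -0.41 and 0.39. The difference between these families was not tested.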

How the data were processed

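RNA of H9 cells was sequenced in 3 DMSO and 3 AZD4573 libraries, each mapped to its group by its label. The authors trimmed reads with Cutadapt 2.3, aligned them to GRCh38 with STAR 2.7.8a and deposited expected counts per gene from RSEM 1.3.3, in whole numbers and without normalization. Default RSEM settings ignore strand and share reads between near-identical genes. The labels name poly(A) RNA, the supplemental methods rRNA depletion. The 5 entries that are no Ensembl gene held 0 counts and were left out.

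In edgeR 4.0.16 (R 4.3.3), genes were filtered (minimum count 10) and scaled by TMM. All 17678 were fitted without a replicate block, tested by quasi-likelihood and adjusted by the Benjamini-Hochberg method, and the members' rows were then read out. A call needed a fold of 1.5 or more and an adjusted p under 0.05. Ratios of partner enzymes were compared by an exact two-sided permutation test. Values in every library are given for the 5 largest called falls and rises of each compartment, the genes with both forms, the scaffolds, and the 3 pairs that differed most each way. The counts and sums cover all 40 members, of which 2 are not reported here by name. All members, lists and rules were chosen with earlier results of these data known. Gene models came from GENCODE release 44 and promoters from RefSeq (GRCh38.p14).

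Alternatives were RLE factors, library size only, scaling to mitochondrially encoded mRNAs, other filters, each library left out, a replicate block, DESeq2 1.42.0 and other fold thresholds. Tested on simulated data for AZD4573 against DMSO with 17678 genes, edgeR recovered 199 of 200 changed genes and DESeq2 194. Recovery meant an adjusted p under 0.05 in the right direction, and false calls past the fold criterion numbered 4 and 0. The changed genes were well expressed, with as many raised as lowered by 2-fold, at a fixed dispersion. The simulation thus could not show how the fits behave where the scaling is in doubt or where shifts are smaller. Chi-square per degree of freedom between replicates was 5.29 to 19.4, so that none was a copy. Libraries held 52101868 to 76571157 counts.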

Additional observations from a re-analysis of the deposited data

How the results depend on the processing

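Scaling to the mitochondrially encoded mRNAs moved the medians more than any other alternative that gave one: 7 cytosolic enzymes were called lower and 0 higher (median log2 fold change -0.35), and 13 mitochondrial enzymes were called lower and 0 higher (median -1.15). Of all 17678 genes tested, 9433 were called lower and 1769 higher with this scaling. Under it 21 of 40 members turned from above to below 0, among them AARS1 (-0.03), VARS2 (-0.09), NARS1 (-0.13), LARS1 (-0.16), QARS1 (-0.18), WARS1 (-0.19), CARS1 (-0.22), IARS1 (-0.23), YARS1 (-0.24), AIMP1 (-0.25), FARS2 (-0.25), MARS1 (-0.30), EPRS1 (-0.38), CARS2 (-0.43), GARS1 (-0.54), VARS1 (-0.58), IARS2 (-0.63), SARS1 (-0.70) and KARS1 (-0.71). With library size only, 1 cytosolic and 1 mitochondrial enzyme were called higher (3444 of all 17678 genes), the medians were 0.29 and -0.51, and KARS1 and SARS1 both turned to -0.07. Without a filter, 1 cytosolic enzyme was called higher (4535 of all 31323 genes) and KARS1 and SARS1 both turned to -0.01. With at least 10 counts in every library, 5 cytosolic enzymes were called higher, beside 3246 of all 15247 genes. At a fold of at least 2, cytosolic calls were 0 lower and 0 higher and mitochondrial calls 5 lower and 0 higher. The share of all genes at this fold is not given, so these counts show only how the calls depend on the threshold. Without a fold threshold, 12 cytosolic and 5 mitochondrial enzymes were higher, beside 37.3% of all genes tested.

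With each library left out in turn, 1 to 4 cytosolic enzymes were called higher (1 without AZD4573 replicate 3, 4 without AZD4573 replicate 1) with a median of 0.34 to 0.43, and 1 to 2 mitochondrial enzymes were called higher (1 without DMSO replicate 1). KARS1, which did not pass the test, lay between -0.02 and 0.08, with -0.000584, -0.02 and -0.00281 without DMSO replicate 2, DMSO replicate 3 and AZD4573 replicate 3. Per kilobase the compartment ratio changed 1.41-fold. In an alternative chosen after seeing the data, leaving out genes that share at least 10% of their exon bases left 1 mitochondrial enzyme called higher. The cause was not tested for any of these.

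Same-numbered libraries did not deviate together (correlations -0.0208, 0.0417 and 0.0316), so the replicate numbers were not taken as pairs. With the replicate block, 4 cytosolic enzymes were called lower and 2 higher (median 0.39), 8 mitochondrial enzymes were called lower and 2 higher (median -0.41), and over all genes 4162 were lower and 3926 higher. Of 520 values of single members under the alternatives, 478 kept direction and side of the adjusted p threshold, without regard to the fold criterion. NARS1 (0.51) and VARS2 (0.54) with library size only are among these 478, although they fell short of a 1.5-fold rise there. All 126 alternative values of the pair ratios kept their direction.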
